A study of Mus musculus with 3 samples.

Results

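The 10 genes described here, of 31053 in the deposited gene table, encode products that goblet and other secretory cells of the colon release or need for release. They were chosen by gene symbol: Muc2, Tff3, Zg16, Fcgbp, Spink4, Agr2, Reg4, Mptx1, Retnlb and Ang4, and all 10 were found. They were followed in single cells from distal colon and anus, taken from C57Bl/6 mice bought at 6 weeks of age. The day 0 library came from 5 untreated mice. The day 7 and day 42 libraries came from 5 mice each that were given 3% DSS (dextran sulfate sodium, which damages the epithelium of the colon) in their drinking water for 6 days; the labels call day 7 severe colitis and day 42 recovered. The tissue of the 5 mice of a day was pooled before cells were captured on the 10x Chromium platform. Each day is therefore 1 library with no replicate, no test between days was possible, and mouse-to-mouse spread could not be seen. No untreated mice of day 7 or day 42 were among the samples, so treatment, time and library cannot be told apart.

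Goblet cells make the mucus that covers the colon. Muc2 is the gel-forming mucin that gives the layer its structure, Fcgbp and Zg16 are proteins of the same layer, and Tff3 is a trefoil peptide secreted with it. Agr2 is a disulfide isomerase of the endoplasmic reticulum needed to make Muc2. Spink4 is a small secreted protein with the fold of a protease inhibitor, and Reg4 is a lectin of the Reg family, used in the mouse colon as a marker of the deep crypt secretory cells that sit between stem cells. Mptx1 is a mucosal pentraxin, and Retnlb (RELM-beta) and Ang4 (an angiogenin of the RNase family) are secreted antimicrobial proteins.

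In build GRCm38 the genes lie on 8 chromosomes, and 3 of the 4 mucus layer genes are on chromosome 7: Fcgbp at chr7:28071236-28120862, Zg16 at chr7:127050156-127087328 and Muc2 at chr7:141690340-141754693. Tff3 is at chr17:31125306-31129646, Spink4 at chr4:40920052-40931395, Agr2 at chr12:35992907-36004087 and Reg4 at chr3:98222156-98236748. Mptx1 is at chr1:174330518-174332873, Retnlb at chr16:48816856-48818892 and Ang4 at chr14:51763878-51773590. All 10 are annotated as protein-coding.

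Promoter sequence was available for 6 of the 10 genes: Muc2, Fcgbp, Agr2, Reg4, Mptx1 and Ang4. The 250 bases before the RefSeq start of transcription (build GRCm38.p6) are shown for 4 of them. Muc2 and Fcgbp varied together across secretory cells, and Reg4 and Mptx1 were in another such group, as described further on. Agr2 was in the group of Reg4 and Mptx1 too, but its window and that of Ang4 are not shown. Each sequence is written 5′ to 3′ on the strand of the gene. Capitals mark TATAA, the core of the box that positions many start sites, and CAGCTG, a form of the E-box. They also mark AGATAA, a run of letters that GATA factors recognise. Both strands were searched, and capitals join where motifs touch or overlap.
Muc2, chr7:141690090-141690339, + strand: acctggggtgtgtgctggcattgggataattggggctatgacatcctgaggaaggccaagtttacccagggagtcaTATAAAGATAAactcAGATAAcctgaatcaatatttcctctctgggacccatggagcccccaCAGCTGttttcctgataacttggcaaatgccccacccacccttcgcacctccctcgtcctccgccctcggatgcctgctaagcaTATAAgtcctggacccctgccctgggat
Fcgbp, chr7:28070986-28071235, + strand: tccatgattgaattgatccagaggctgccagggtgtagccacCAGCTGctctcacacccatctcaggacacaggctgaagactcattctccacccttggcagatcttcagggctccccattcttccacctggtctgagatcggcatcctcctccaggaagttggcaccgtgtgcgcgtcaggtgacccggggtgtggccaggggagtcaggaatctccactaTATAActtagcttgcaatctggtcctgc
Reg4, chr3:98221906-98222155, + strand: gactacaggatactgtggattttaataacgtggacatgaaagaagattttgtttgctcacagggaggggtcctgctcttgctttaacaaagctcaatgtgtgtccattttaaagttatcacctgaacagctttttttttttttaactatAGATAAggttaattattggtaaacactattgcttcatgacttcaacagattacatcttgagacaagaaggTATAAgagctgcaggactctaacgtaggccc
Mptx1, chr1:174330268-174330517, + strand: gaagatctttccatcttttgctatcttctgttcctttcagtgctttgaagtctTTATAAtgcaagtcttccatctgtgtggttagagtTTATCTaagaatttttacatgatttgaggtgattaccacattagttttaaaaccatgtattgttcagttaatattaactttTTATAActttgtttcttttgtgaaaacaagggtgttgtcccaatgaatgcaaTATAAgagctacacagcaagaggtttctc

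TATAA was in the 4 windows shown and not in Agr2 or Ang4, against 22.8% of 32851 RefSeq promoter windows of this length. In each of the 4 a copy lay within the last 31 bases, a position for which no background share was counted. Only these exact letters were searched, so other forms of the box were not counted. CAGCTG was in Muc2 and Fcgbp and in 13.0% of all windows, and AGATAA was in Muc2, Reg4 and Mptx1 and in 9.99% of all windows. The palindrome that STAT6-type factors bind was in none of the 6 and in 5.85% of all windows. A match is a run of letters and not a bound site, and no binding was measured here.

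The deposited cell table put the columnar epithelium in 5 clusters, numbered 2, 7, 15, 22 and 24, holding 4306, 1062 and 1680 cells in the 3 libraries in order of day. Cluster 15, which the authors name secretory colonocytes, held 479, 35 and 179 of them, or 11.1% (95% exact binomial interval 10.2 to 12.1), 3.30% (2.31 to 4.55) and 10.7% (9.22 to 12.2). All 8 goblet markers and all 5 deep crypt secretory markers of lists drawn up for this check had counts in it on each day. Clusters 2 and 7 also had counts of every one of these at day 0, so the presence of counts does not set cluster 15 apart. Levels are given as CPM, a gene's unique molecular identifiers (UMIs) divided by all UMIs of the summed cells and scaled to 1e6. In cluster 15 the goblet markers summed to 20926, 101135 and 43054 CPM at day 0, 7 and 42. Some of these markers are among the 10 genes, and cluster 15 was formed from these same transcripts, so its high level against other clusters is part of its definition. Its cells had a median of 5499, 3334 and 6394 UMIs, with a median of 20.7%, 33.2% and 9.62% of UMIs from mitochondrial genes. The libraries shared 40 to 55 cell barcodes pairwise, and none of the shared barcodes lay in cluster 15 in both libraries. All intervals here are 95% and cover counting error only.

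The 10 genes together made up 3.60% of all UMIs of cluster 15 at day 0, 10.4% at day 7 and 7.49% at day 42. In the cell with the highest share they reached 19.7%, 20.7% and 30.0% of a cell's UMIs. Apart from Agr2, between 88.8% and 100% of each gene's columnar UMIs lay in cluster 15 wherever the gene had any. Agr2 differed: cluster 15 held 37.7%, 31.2% and 59.4% of its columnar UMIs at day 0, 7 and 42.

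The summed levels of the 4 mucus layer genes were highest in the 35 cells of day 7. For Fcgbp the order of day 7 and day 42 turned by the mean of CPM per cell and after thinning, with log2 ratios of day 42 to day 7 of 0.19 and 0.043. Muc2 summed to 2993 CPM at day 0 (95% exact Poisson interval 2936 to 3050, 10519 UMIs), 17290 CPM at day 7 (16741 to 17852, 3754 UMIs) and 6917 CPM at day 42 (6769 to 7068, 8240 UMIs). Tff3 stood at 3437, 17773 and 4704 CPM, Zg16 at 4315, 35924 and 6550 CPM, and Fcgbp at 2978, 11707 and 5180 CPM. On the log2 scale with 10 CPM added to both sides, the ratio of day 7 to day 0 was 2.53 for Muc2, 2.37 for Tff3, 3.05 for Zg16 and 1.97 for Fcgbp.

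Most of those day 7 UMIs came from a handful of cells. The 6 cells with at least 10000 UMIs held 57.0% of cluster 15's UMIs at day 7 and 80.6% of its Zg16, 67.7% of its Muc2, 73.3% of its Tff3 and 64.3% of its Fcgbp. The 29 shallower cells, in which a median of 35.9% of UMIs were mitochondrial, had 12992 CPM of Muc2, 11012 of Tff3, 16214 of Zg16 and 9707 of Fcgbp. The 349 day 0 cells under 10000 UMIs had lower levels, at 3764 CPM of Muc2, 4420 of Tff3, 6761 of Zg16 and 4025 of Fcgbp. Within these shallower cells the log2 ratio was 1.78 for Muc2, 1.31 for Tff3, 1.26 for Zg16 and 1.27 for Fcgbp. The share of cells with a UMI showed a like order for Zg16, at 35.5% of cells at day 0, 88.6% at day 7 (73.3 to 96.8) and 49.2% at day 42. For Muc2 that share was 86.6%, 97.1% and 95.5%.

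Reg4 and Mptx1 were low in the same 35 cells. Reg4 summed to 2235 CPM at day 0 (2186 to 2285), 161 CPM at day 7 (112 to 224, 35 UMIs in 4 cells) and 5023 CPM at day 42 (4897 to 5152). It was detected in 68.5% of cells at day 0, 11.4% at day 7 (3.20 to 26.7) and 62.6% at day 42. When every cell was thinned to 1000 UMIs the shares were 53.6%, 5.88% and 60.9%, so day 7 stayed lowest and the order of day 0 and day 42 turned. Mptx1 stood at 10706, 3192 and 23220 CPM, and 577 of its 693 UMIs at day 7 lay in 1 cell. In the 29 shallower day 7 cells Mptx1 was at 225 CPM and Reg4 at 32.1 CPM, the latter from 3 UMIs in 1 cell. The log2 ratio of day 7 to day 0 was -3.71 for Reg4 and -1.74 for Mptx1. Other deep crypt markers were lower at day 7 too. Kit stood at 78.0 and 18.4 CPM at day 0 and 7, Dll1 at 41.5 and 9.21, Dll4 at 37.6 and 18.4, and Cd24a at 228 and 157. Each crypt progenitor and division marker was also lower, as Mki67 at 86.5 and 0 CPM and Pcna at 36.7 and 23.0.

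Spink4 and Agr2 took neither course. Spink4 had 4769, 11344 and 12654 CPM at day 0, 7 and 42, and a day 7 to day 0 log2 ratio of 1.25. That ratio turned to -0.94 when the 10 cells with the most Spink4 UMIs were left out of each library. Those were 10 of 35 cells at day 7, holding 93.1% of its Spink4 UMIs, and 10 of 479 cells at day 0. In cells under 10000 UMIs Spink4 stood at 3916, 4249 and 14858 CPM at day 0, 7 and 42. Agr2 had 4579, 5812 and 7402 CPM, with log2 ratios of 0.34 at day 7 and 0.69 at day 42 over day 0. Its day 7 ratio was -2.37 without the 10 cells with the most Agr2 UMIs. In cells under 10000 UMIs its levels were 3084, 1884 and 8663 CPM, and the day 42 ratio was 1.49.

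Retnlb and Ang4 separated day 42 from day 0. Retnlb had 13 UMIs in 8 of 479 cells at day 0 (3.70 CPM, 1.97 to 6.32), 108 UMIs in 11 of 35 cells at day 7 (497 CPM, 408 to 601) and 1696 UMIs in 95 of 179 cells at day 42 (1424 CPM, 1357 to 1493). Ang4 had 58 UMIs in 21 cells at day 0 (16.5 CPM, 12.5 to 21.3), none at day 7 and 2194 UMIs in 75 cells at day 42 (1842 CPM, 1766 to 1920). Of the day 7 Retnlb UMIs 92.6% lay in the 6 cells of at least 10000 UMIs, at 809 CPM against 85.6 CPM in the other 29. For Ang4 the 0 of 35 cells at day 7 allows a share of cells with a UMI of up to 8.57%, taking 3 cells as the limit of a count of 0. Against a floor of 3 UMIs for that day, or 13.8 CPM, Ang4 was at least 133-fold higher at day 42. The log2 ratio of day 42 to day 0 was 6.71 for Retnlb and 6.13 for Ang4. The highest single cell held 4 Retnlb UMIs at day 0 and 144 at day 42, and 13 and 195 Ang4 UMIs, so both the number of cells with a UMI and the amount per cell were higher at day 42. Thinned to 1000 UMIs, 38.5% of 156 day 42 cells kept a Retnlb UMI and 35.3% an Ang4 UMI, the latter against 1.06% of 472 cells at day 0. In no non-columnar type of at least 50 cells did more than 2.48% (Retnlb) or 1.65% (Ang4) of cells carry a UMI at day 42.

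**Figure D1:**
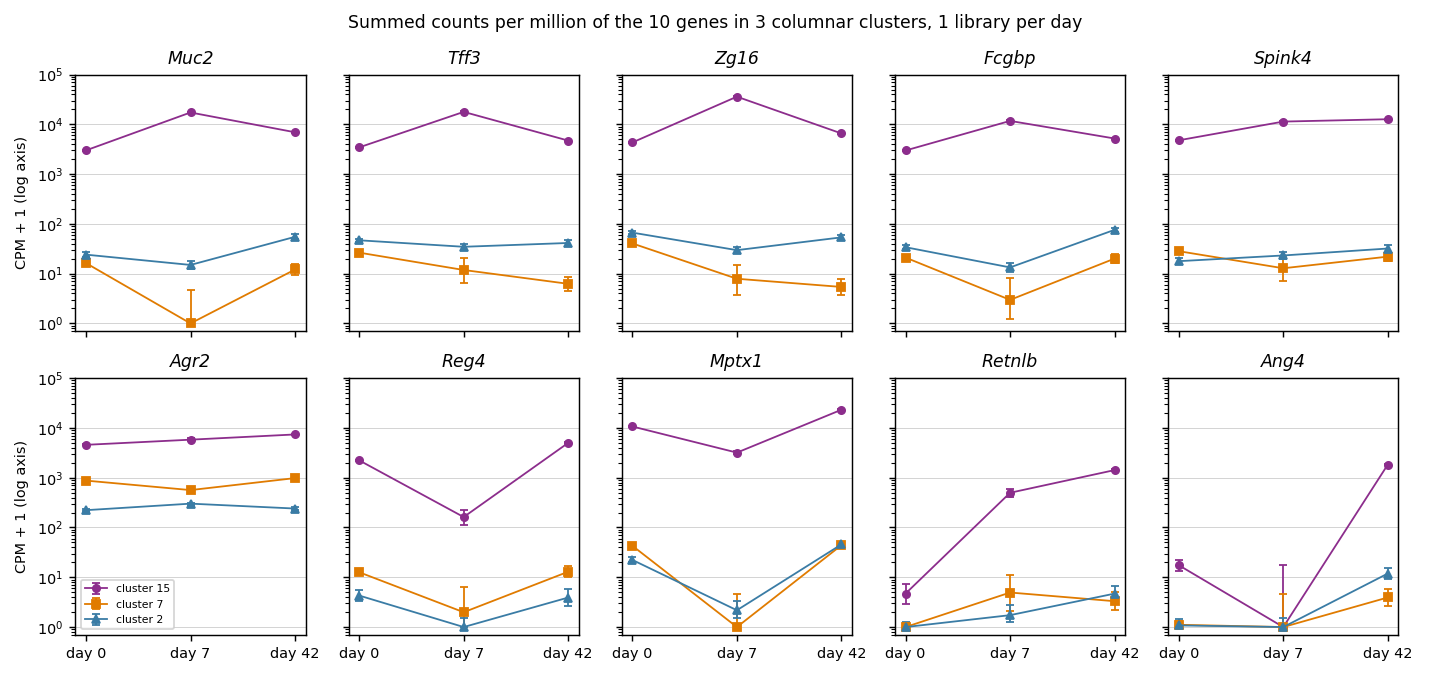
Summed CPM plus 1 (log axis) of each of the 10 genes in clusters 15, 7 and 2 at day 0, 7 and 42, with 95% exact Poisson intervals for counting error and lines joining the days of 1 cluster. In cluster 15 Muc2, Tff3, Zg16 and Fcgbp are highest at day 7, Reg4 and Mptx1 are lowest there, and Retnlb and Ang4 are near the bottom at day 0 and above 1000 CPM at day 42; cluster 15 has 35 cells and cluster 7 has 33 cells at day 7.

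Counted over the set, 6 of the 10 genes were at least 2-fold higher in cluster 15 at day 42 than at day 0 and none lower: Muc2, Spink4, Reg4, Mptx1, Retnlb and Ang4. Over all 8464 genes that reached 10 CPM at day 0 or day 42, 1.69% were 2-fold higher and 0.579% were 2-fold lower. The median log2 ratio was 1.14 for the 10 genes and 0.019 for all genes tested. Among cells of at least 10000 UMIs, 33 at day 42 and 130 at day 0, only Retnlb and Ang4 passed 2-fold; Mptx1 then stood at 14392 against 13537 CPM. Among the shallower cells Mptx1 stood at 30564 CPM at day 42 and 7259 CPM at day 0. The squamous marker sum in cluster 15 moved with this comparison, at 834 CPM at day 0 and 2792 at day 42, while in T cells, which should lack these keratins, it stood at 747 and 1655 CPM; its part in the result was not tested.

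A comparison of cluster 15 at day 7 with the other days was added after seeing the data, since 35 cells is under the minimum of 50 set for a comparison. In it 6 genes were 2-fold higher at day 7 than at day 0, namely Muc2, Tff3, Zg16, Fcgbp, Spink4 and Retnlb, and 3 were lower, namely Reg4, Mptx1 and Ang4. The call of Spink4 held in 7 of 11 other ways of processing. The call of Ang4 rests on the 10 CPM added: with no UMI at day 7 it was at least 1.19-fold lower, so 2 genes were 2-fold lower without it. Over 8296 genes 3.56% were higher and 14.6% lower, so a lower value was common in this comparison. From day 7 to day 42, 4 genes were higher (Reg4, Mptx1, Retnlb and Ang4) and 4 lower (Muc2, Tff3, Zg16 and Fcgbp), against 17.2% and 3.78% of 8391 genes. The lower calls ended under other processing: 1 of the 4 was left without the 10 top cells of each gene, 1 after thinning, and 0 by the mean of CPM per cell or in cells under 10000 UMIs. The 3 comparisons share libraries and are not independent. Neutrophil markers summed to 1.14, 1059 and 132 CPM in cluster 15 and to 21.7, 5128 and 652 CPM in T cells. The source of these counts and their part in the result were not tested.

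**Figure D2:**
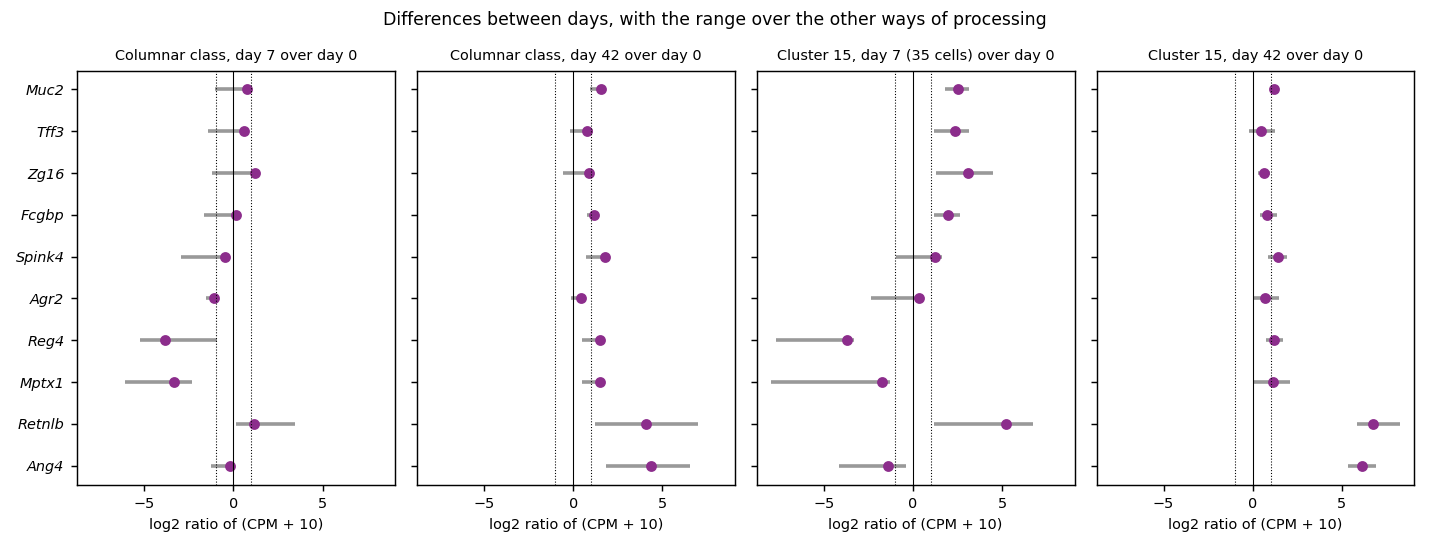
The log2 ratio of CPM plus 10 for each gene in the whole columnar class and in cluster 15, for day 7 and day 42 over day 0 (points), with the lowest and highest value over the other ways of processing (grey lines) and dotted lines at 2-fold. Retnlb and Ang4 at day 42 lie above 2-fold over their whole range in both panels, and at day 7 the lines of Muc2, Tff3, Zg16 and Fcgbp cross 0 in the columnar class.

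Within cluster 15 the genes split into groups that varied together from cell to cell. The groups were drawn after seeing the values, and the correlations are descriptions over cells of 1 library that share its depth range. On log2(UMIs per 10000 + 1), the 6 pairs among Muc2, Tff3, Zg16 and Fcgbp had Pearson r of 0.49 to 0.72 over the 479 cells of day 0 and 0.52 to 0.78 over the 179 cells of day 42. The 6 pairs among Spink4, Agr2, Reg4 and Mptx1 had r of 0.58 to 0.76 at day 0 and 0.34 to 0.77 at day 42. Of the 16 pairs between the groups, 13 were below 0 at day 0 and 12 at day 42. The lowest was Reg4 with Zg16, at -0.61 and -0.64. After thinning to 1000 UMIs a cell, these were -0.48 and -0.56.

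**Figure D3:**
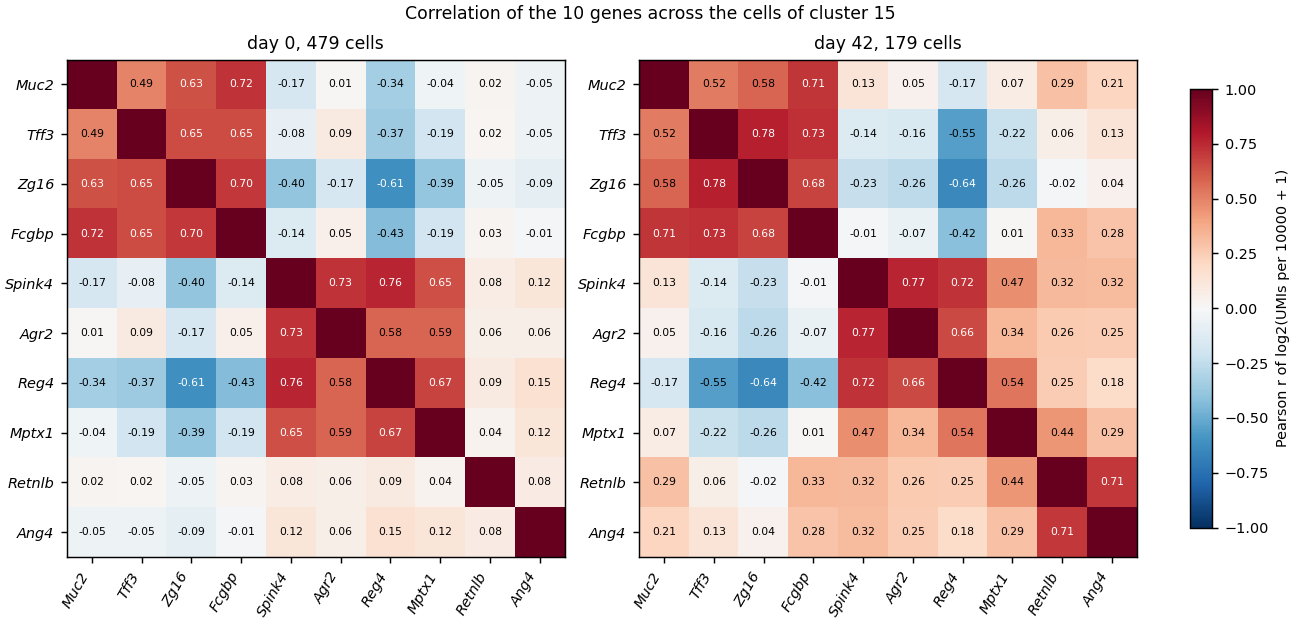
Pearson r of log2(UMIs per 10000 + 1) between the 10 genes across the cells of cluster 15 at day 0 (479 cells) and day 42 (179 cells). At both days Muc2, Tff3, Zg16 and Fcgbp form a positive block, Spink4, Agr2, Reg4 and Mptx1 form another, and Retnlb and Ang4 pair only at day 42 (0.71 against 0.083).

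Most cells with Zg16 lacked Reg4, and most with Reg4 lacked Zg16. At day 0, 57 cells had a UMI of both, 271 of Reg4 only, 113 of Zg16 only and 38 of neither; at day 42 the numbers were 37, 75, 51 and 16. The 328 day 0 cells with Reg4 had 557 CPM of Zg16 and 12513 of Mptx1, and the 151 without it had 24103 CPM of Zg16 and 1191 of Mptx1. Depth moved with this split, at a median of 7658 UMIs with Reg4 and 2892 without it, as did the mitochondrial share, at 17.1% and 27.9%; their part in it was not tested. Of the 328 Reg4 cells 279 also had a Muc2 UMI, but the level of Muc2 was 2084 CPM in cells with Reg4 and 7779 CPM in those without it, and its r with Reg4 was -0.34. At day 7 all 4 cells with Reg4 also had Zg16, and no pair between the groups was below 0 over the 35 cells.

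The balance between the groups was also read cell by cell, as the Muc2, Tff3, Zg16 and Fcgbp share of the UMIs of all 8 genes. At day 0 the median cell had 30.4%, with 114 cells under 10% and 102 over 90%. At day 42 the median was 33.1%, with 30 cells under 10% and 46 over 90%. At day 7 the median was 89.1%, with no cell of 35 under 10% and 17 over 90%. At day 7 the remaining 18 cells lay between 10% and 90%.

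Retnlb and Ang4 formed a pair of their own at day 42. Of 179 cells, 67 had both, 28 had Retnlb only, 8 had Ang4 only and 76 had neither, with r of 0.71 (0.56 thinned). The 75 cells with Ang4 had 2679 CPM of Retnlb and the 104 without it had 231 CPM. Their r with the other 8 genes lay between -0.016 and 0.44, the highest being Retnlb with Mptx1. Cells with Retnlb were found among both kinds: Retnlb stood at 1448 CPM in the 112 cells with Reg4 and 1245 CPM in the 67 without it. At day 0 only 1 cell had both genes.

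**Figure D4:**
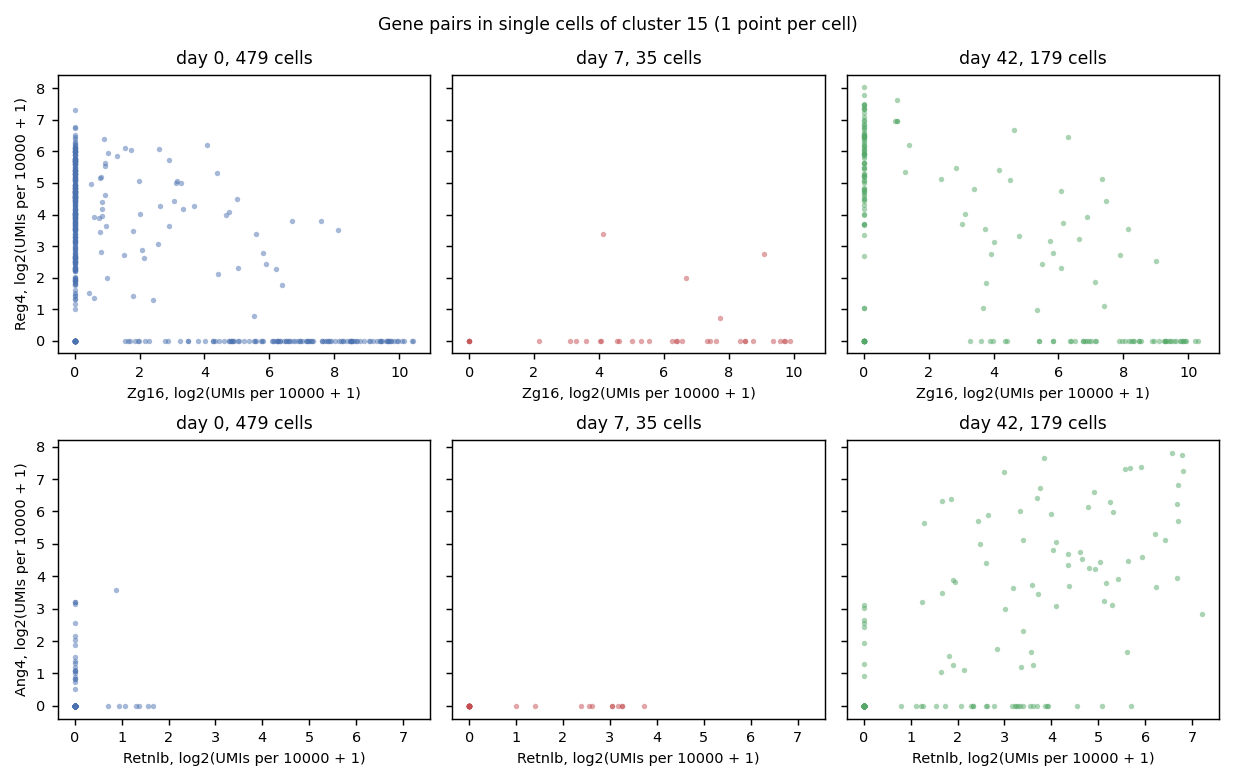
Single cells of cluster 15 by day, as log2(UMIs per 10000 + 1), for Zg16 against Reg4 (top) and Retnlb against Ang4 (bottom). Most cells with Reg4 lie at or near 0 for Zg16 and the reverse at day 0 and day 42, only 4 cells have Reg4 at day 7, and the cloud of cells with both Retnlb and Ang4 is present at day 42 only.

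The columnar class as a whole, of which cluster 15 is a small share, was compared in the same way. At day 42, 7 of the 10 genes were at least 2-fold higher than at day 0 and none lower, against 1.39% and 0.433% of 8317 genes: Muc2, Fcgbp, Spink4, Reg4, Mptx1, Retnlb and Ang4. Cluster 15 made up 11.1%, 3.30% and 10.7% of columnar cells at day 0, 7 and 42, and 8.01%, 2.44% and 10.7% of columnar UMIs. Without this cluster only Retnlb and Ang4 were past 2-fold at day 42, at log2 ratios of 1.20 and 1.84, and Muc2 was at 0.97. Cluster 24 held 100 Retnlb UMIs and 191 Ang4 UMIs of the class at day 42, of which 100 and 169 lay in 1 cell, so the ratios without cluster 15 rest largely on single cells. At day 7, 2 genes were higher than at day 0 (Zg16 and Retnlb) and 3 lower (Agr2, Reg4 and Mptx1), against 4.02% and 2.43% of 8486 genes. Without the 10 top cells of each gene none was higher and 8 were lower, none was higher by the mean of CPM per cell or without cluster 15, and Retnlb stayed past 2-fold in 8 of 11 alternatives. Zg16 stood at 389 CPM at day 0 and 900 at day 7, a log2 ratio of 1.19 that was -1.22 without the 10 cells highest in it. Reg4 stood at 188 and 4.04 CPM and Mptx1 at 898 and 78.7 CPM. From day 7 to day 42, 6 were higher (Spink4, Agr2, Reg4, Mptx1, Retnlb and Ang4) and none lower, against 1.26% and 1.63% of 8118 genes.

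Agr2 was the gene least tied to cluster 15. In cluster 7, where crypt progenitor and division markers summed to 1272 CPM against 92.3 in cluster 2 at day 0, it was found in 96.3% of 1809 cells at day 0, 90.9% of 33 at day 7 and 97.8% of 412 at day 42. Its level there was 875 CPM (864 to 886), 563 CPM (518 to 612) and 982 CPM (954 to 1011). In cluster 2, the absorptive cluster, 32.6%, 33.1% and 26.4% of cells had a UMI, at 222, 300.5 and 239 CPM. Both clusters were far above T cells, where 5.94%, 0.847% and 1.65% of cells had one at a median depth of 2064, 2260 and 1393 UMIs. Its columnar level was 974, 454 and 1328 CPM at day 0, 7 and 42, while cluster 7 made up 42.0%, 3.11% and 24.5% of columnar cells; the part of the mix of clusters in that level was not tested. Within cluster 2 the log2 ratio of day 7 to day 0 was 0.42, against -1.09 in the whole class.

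The other genes were lower in clusters 2 and 7, at no more than 75.0 CPM on any day. The 10 highest cells held 31.3% of the Mptx1 UMIs of cluster 2 at day 42 and 82.3% of those of Muc2. In cluster 2, 1 of the 10 was lower and none higher at day 7 than at day 0 (Mptx1, 21.3 and 1.17 CPM), against 3.07% of 7547 genes higher and 1.06% lower. At day 42, 1 was higher than at day 0 and none lower (Ang4, 0.0785 and 10.9 CPM), against 1.58% and 0.31% of 7413 genes. From day 7 to day 42, 4 were higher (Muc2, Fcgbp, Mptx1 and Ang4) and none lower, against 0.915% and 1.28% of 7430 genes; Ang4 had no UMI at day 7 and was at least 24.7-fold higher. In cluster 7 at day 42, Tff3 and Zg16 were 2-fold lower than at day 0 and none was higher, against 0.594% and 0.535% of 8418 genes. Zg16 there was 39.5 CPM at day 0, of which the 10 highest cells held 91.5%, and 4.40 CPM at day 42. Without the 10 highest cells of each gene the log2 ratios were -0.51 for Tff3 and -0.24 for Zg16, short of 2-fold. At day 42 T cells and other non-columnar types also held Mptx1, at 15.8 to 113 CPM, so the 44.8 CPM of cluster 2 lies within the range of cells that should lack it. The same holds for Ang4, which reached 20.9 CPM in neutrophils.

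Cluster 22 was almost wholly a day 7 group, with 4, 279 and 5 cells. The authors name it colonocytes, and at day 7 its absorptive markers summed to 1864 CPM, its squamous markers to 9875 CPM and its neutrophil markers to 13165 CPM. Agr2 was in 38.4% of its 279 day 7 cells, and Fcgbp, Reg4, Mptx1 and Ang4 were at 0 UMIs, which by the same limit of 3 allows a share of cells with a UMI of up to 1.08%. Cluster 24, the enteroendocrine cells, held 78, 12 and 12 cells. At day 42 its Muc2, Spink4, Retnlb and Ang4 summed to 1525, 3023, 1326 and 2532 CPM, but 1 of the 12 cells held 90.3% of the 1163 UMIs of the 10 genes. That cell had 15992 UMIs, among them 13 of the endocrine gene Chga, and whether it was a doublet was not tested. At day 0 as well, 1 of 78 cells held 79.4% of the 757 UMIs.

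At day 0 the genes were at lower levels outside the columnar class than in cluster 15, with a wide range between cell types: Muc2 ran from 2.37 to 79.9 CPM, Tff3 from 4.90 to 124 CPM and Spink4 from 4.74 to 63.3 CPM. At day 0, 83.4% (Fcgbp) to 100% (Retnlb) of a gene's UMIs in the library lay in columnar cells. At day 7 the share ran from 78.0% (Fcgbp) to 97.1% (Mptx1), apart from Ang4, whose 2 UMIs lay elsewhere. The day 7 cell with the highest share of its UMIs from the 10 genes, at 22.8%, was outside the columnar class. Across the non-columnar types with at least 50 cells, leaving out cells the authors call unknown, the median level at day 0 ran from 0 CPM for Retnlb and Ang4 to 21.3 CPM for Fcgbp. The highest single value at day 0 was Zg16 in muscle-like cells, at 260 CPM, where the 10 highest of 296 cells held 98.2% of its UMIs. Mptx1 in these types reached at most 19.9, 0.714 and 113 CPM at day 0, 7 and 42, the same order of days as in cluster 15.

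Fcgbp was found in many cells of particular keratinocyte clusters. In keratinocyte cluster 9 it was found in 32.0% of 596 cells at day 0 (28.3 to 36.0), 11.1% of 1007 at day 7 (9.25 to 13.2) and 18.6% of 456 at day 42 (15.2 to 22.5), at 197, 23.5 and 100.1 CPM. In cluster 8 it was in 24.1% of 781, 3.29% of 943 and 14.0% of 364 cells, at 101 CPM, 19.4 CPM and 68.2 CPM. In T cells it was in 1.83%, 1.69% and 0.826% of cells, and in keratinocyte clusters 1 and 3 in 2.12% to 3.61%. Median depth in cluster 9 was 7747, 11748 and 4418 UMIs, so the day 7 cells with the lower share were the deeper ones. Thinned to 1000 UMIs a cell the shares were 16.1%, 3.08% and 8.11%. Muc2, made in the same secretory cells, was in 3.20% of cluster 8 cells at day 0, and Zg16 in 6.15%. B230219D22Rik, a gene that shares 50-base words with Fcgbp, stood at 85.5, 79.2 and 87.3 CPM in cluster 9 on the 3 days. Reads that could belong to either cannot be told apart here, and 6.42% of the 50-base words of Fcgbp transcripts occur in that gene or in 9530053A07Rik.

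**Figure D5:**
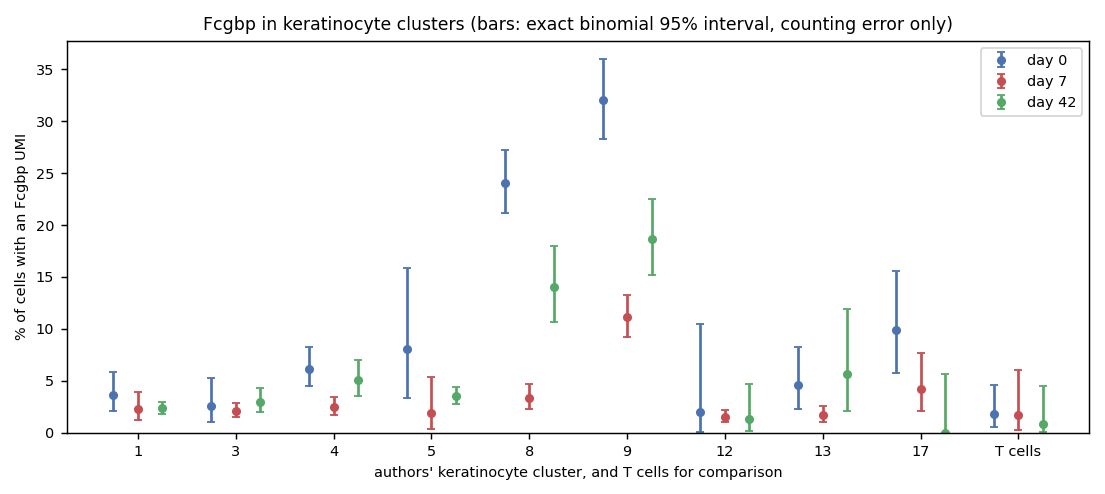
Share of cells with an Fcgbp UMI in each keratinocyte cluster of at least 50 cells on each day, and in T cells, with 95% exact binomial intervals for counting error. Clusters 8 and 9 stand above the other clusters and T cells at day 0 and day 42, and are lower at day 7 than on either other day.

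Among other genes of the secretory pathway, drawn up as lists, 18 other goblet products were tested in cluster 15 at day 7, of which 9 were 2-fold higher than at day 0 and 2 lower, with a median log2 ratio of 0.93 against -0.27 for all genes. Over all genes 3.56% were higher and 14.6% lower, so the lower count is near the background share. Clca1, a metalloprotease of the mucus, went from 2044 to 6899 CPM, Lypd8, an anchored antibacterial protein, from 1624 to 6448 CPM, and the membrane mucin Muc1 to 226 CPM with a log2 ratio of 2.75. Lypd8 was higher still in cluster 2, at 9332 and 21795 CPM, and went from 1659 to 6714 CPM in cluster 7. The absorptive markers in cluster 15 went both ways from day 0 to day 7. Saa1 went from 298 to 4412 CPM, Krt20 from 57.8 to 207 and Cdhr5 from 115 to 253, with Car1 and Ceacam20 also higher. Guca2a went from 525 to 147 CPM, with Car4, Slc26a3, Aqp8 and Slc37a2 also lower. The part of absorptive RNA in the count was not tested. Retnlg, also among the 9, had no UMI at day 0 and is also one of the neutrophil markers given above. Lyz1, a lysozyme, was at 91.3 CPM at day 0, 0 at day 7 and 83.9 at day 42. At day 42, 4 of 20 were 2-fold higher than at day 0 and none lower, against 1.69% and 0.579% of all genes: Clca1 at 6721 CPM, Muc3 at 254 CPM, the lectin Itln1 at 56.2 CPM against 6.26, and Retnlg.

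The counts for the other lists stand beside the same background, 3.56% higher and 14.6% lower at day 7 and 1.69% and 0.579% at day 42. Of 14 secretory transcription factors tested, none was 2-fold higher at day 7 and 1 was lower: Atoh1, which commits cells to the secretory fate, at 294, 82.9 and 196 CPM at day 0, 7 and 42. Spdef, which promotes goblet maturation, stood at 96.4, 115 and 133 CPM. At day 42 none of the 14 passed 2-fold against day 0. Of 34 genes of folding in the endoplasmic reticulum and the unfolded protein response, none passed 2-fold at day 42, with a median log2 ratio of 0.33 against 0.019 for all genes, and at day 7, 1 was higher and 2 lower. Of 22 mucin glycosylation genes, 4 were higher at day 7 (Galnt3, Galnt6, Fut2 and Chst4) and 4 lower (Gcnt1, St3gal6, Galk1, with no UMI at day 7, and St6galnac2, read from the first of its 2 identifiers); the lower count is near the background share. At day 42, 2 of 23 were higher, Chst4 and B4galnt2.

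The genes whose level was most like that of each member were found over the 60 cluster-by-day sums of at least 50 cells, among 5245 genes, by Pearson r of log2(CPM + 10). For Muc2 they were Clca1 (0.97), Sval1 (0.95) and Tff3 (0.93), and for Tff3 they were Sval1 (0.95), Zg16 (0.94) and Muc2 (0.93). For Zg16 they were Tff3 (0.94), Spink1 (0.93) and Muc2 (0.91), and for Fcgbp they were Muc2 (0.92), Clca1 (0.91) and Tff3 (0.87). Beside members, these 4 genes had Clca1, Sval1 and Spink1 among their nearest. Spink4 was followed by Reg4 (0.96), Mptx1 (0.94) and Sval1 (0.94), Mptx1 by Spink4 (0.94), Reg4 (0.92) and Sval1 (0.92), and Reg4 by Spink4 (0.96), Hpd (0.95) and Atoh1 (0.95). Agr2 had no member among its 3, which were Klk1 (0.96), Hsd11b2 (0.93) and Cdx1 (0.91). Retnlb and Ang4 were most like each other (0.96), and the next genes were Clca1 (0.75) and Reg4 (0.74) for Retnlb, and Tpsg1 (0.81) and Reg4 (0.80) for Ang4. The sums share libraries and clusters, so the r values are descriptions.

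Some reads of 3 members could have been shared with related genes. Of the 50-base words in Mptx1 transcripts 17.9% also occur in Mptx2, which had 0 UMIs in cluster 15 on all 3 days. For Ang4 the share was 4.70%, with Ang5 and Ang2, which together had 1 UMI in cluster 15. Fcgbp is given above, and the other 7 members shared no such word with another gene.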

How the data were processed

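Single-cell RNA was measured in 3 libraries, 1 for each day. Per the labels' protocols, tissue was digested with trypsin, dead cells were depleted with annexin V and 10x Chromium 3′ libraries were sequenced. Cell Ranger 3.0.2 and build mm10 are named in the submitters' processing notes. The deposited matrix holds counts of UMIs that the authors left unnormalised, for 31053 genes in 37080 cells, and the day, cluster and cell name of each cell were taken from the authors' cell table. The deposited size factor of each cell is a ratio of its total to that of a typical cell, and the authors' map coordinates, a score for plotting, were not used. The filter on cells and the clustering are not given in the sources used here.

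UMIs were summed over the cells of a cluster and day and divided by their total (numpy 2.4.6 and scipy 1.17.1 under Python 3.11.15). Ratios are log2 with 10 CPM added, genes at 10 CPM or more on either day were tested against a 2-fold threshold, and comparisons needed 50 cells in both libraries. A count of 0 was set against a floor of 3 UMIs. Libraries held 11037, 14376 and 11667 cells with 89241138, 151886649 and 72258639 UMIs. With 1 library a day there is no p-value, and all comparisons with day 0 share that library. No doublet caller was run; an alternative leaves out the 5% of cells with the most UMIs. The ratio step was tested on simulated data. All members and, for each, the 3 genes most alike were named. The members and lists were chosen with earlier results of these data known, and the split of cluster 15 by 10000 UMIs and its day 7 comparisons were added after seeing the data.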

Additional observations from a re-analysis of the deposited data

How the results depend on the processing

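Of 206 counts of members past 2-fold under other ways of processing, 177 stayed within 1.5 times. The 177 include counts that were 0 and stayed 0, so they say less about the counts above 0. Retnlb and Ang4 at day 42 stayed past 2-fold in cluster 15 under all 11 alternatives, as did the 4 mucus genes, Reg4, Mptx1 and Retnlb at day 7 against day 0. The causes below were not tested. For the columnar class at day 7 against day 0, genes higher numbered 0 without the 10 cells with most UMIs of each gene, by the mean of CPM per cell and without cluster 15, and 1 after thinning; genes lower numbered 8 without those 10 cells. Zg16 there turned to -1.22, -0.050, -0.72 and -0.016 in those 4 settings. Equal weight to clusters was not run against day 7, where only cluster 2 holds 50 cells on both days. Columnar genes higher at day 42 numbered 2 against day 0 without cluster 15, and 10 against day 7 without the 10 top cells.

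In cluster 2 at day 7 against day 0, genes lower numbered 2 under the quality filter (at least 1000 UMIs and 500 genes, at most 20% mitochondrial), 4 with 1 CPM added, 2 with median-of-ratios factors, 3 with totals free of mitochondrial and ribosomal genes and 2 thinned, and 1 was higher by the mean per cell. At day 42 against day 0, genes higher numbered 0 under the filter, 3 without the 5% of deepest cells, 0 without the 10 top cells, 4 by the mean per cell, 5 with 1 CPM added and 2 thinned, and against day 7 they numbered 2 without the 10 top cells. In cluster 7, genes lower numbered 1 without the deepest cells, 0 without the 10 top cells and 1 by the mean per cell, and 2 were higher with 1 CPM added. In cluster 15, genes higher at day 42 than day 0 numbered 2 in cells of at least 10000 UMIs. Genes lower at day 42 than day 7 numbered 1 without the 10 top cells, 0 by the mean per cell, 1 thinned and 0 in cells under 10000 UMIs. Spink4 at day 7 against day 0 turned to -0.94 without the 10 top cells, and Fcgbp at day 42 against day 7 to 0.19 by the mean per cell and 0.043 thinned.

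No paired analysis was possible because each day is 1 library, and for the same reason no replicate could be left out. Cluster 24 was not compared between days, since it held 12 cells at day 7 and at day 42. The day 7 values of cluster 15 rest on 35 cells.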
